A study of Homo sapiens with 10 samples.

Results

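Between the island lists of immortalized human astrocytes (IHA), 12013 of 121191 merged H3K9ac regions (9.91%) had an island after 2 days and after 7 days of doxycycline and no island without it. These regions are described here as the doxycycline-shared regions. They were chosen by the presence of islands in the 3 H3K9ac lists of chromosomes 1 to 22. Islands that overlapped or touched were merged, and a merged region was kept when the lists of both doxycycline times contributed to it and the list without doxycycline did not. Because the H3K9ac lists chose them, their H3K9ac reads and lengths are a description with no test. H3K27ac, H4K16ac and the position by chromosome and Giemsa band were not used in the choice. The distance to the nearest region with a noDox island is bounded by the choice, since no chosen region could touch such an island.

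IHA are fetal astrocytes immortalized with SV40, and doxycycline at 1 µg/ml induced IDH1-R132H, the mutant form of isocitrate dehydrogenase 1. The libraries labelled 2d-Dox and 7d-Dox came from cells with the genotype IDH1-R132H, and those labelled noDox from cells without doxycycline, labelled WT IDH1. All cells were of the same line, no doxycycline-treated group without the mutant was among the samples, and the labels do not say whether the line is 1 clone. Acetylation was mapped by CUT&RUN, in which an antibody brings a nuclease to its target in permeabilized cells and the released DNA is sequenced, with 1 library per mark and time. A negative control from noDox cells, with the secondary antibody (anti-rabbit HRP) alone, served for all 9 antibody libraries. With 1 library in each group no test between conditions could be made, so the values below compare libraries, and every interval covers counting error only. PCR-amplified reads are not independent molecules.

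H3K9ac and H3K27ac are found at active promoters and enhancers, and H3K27ac is widely used to tell active enhancers from primed ones. H4K16ac is laid down mainly by the acetyltransferase MOF (KAT8), spreads over broad stretches of transcribed chromatin and loosens the packing of nucleosomes. IDH1 mutated at this residue makes D-2-hydroxyglutarate, a competitor of 2-oxoglutarate-dependent dioxygenases, among them histone and DNA demethylases.

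The H3K9ac libraries differed in depth. Relative to the HRP library their sizes were 3.05 for noDox, 4.17 for 2d-Dox and 4.88 for 7d-Dox, so the list that had to lack an island came from the smallest library. The lists held 88147, 107516 and 94807 islands in the order noDox, 2d-Dox and 7d-Dox, with 5695984, 7844829 and 9489305 reads. The H3K27ac libraries had sizes of 3.98, 3.15 and 1.49 in the same order, and the H4K16ac libraries 2.53, 3.08 and 7.88. An island list does not hold reads outside its islands, so a missing island means a signal under the caller's threshold and not 0 reads. Library size and doxycycline time cannot be told apart in any comparison of presence between times.

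The other regions with islands in just 2 of the 3 lists were fewer. Regions in the noDox and 2d-Dox lists and not the 7d-Dox list numbered 7638 (6.30% of all), and those in the noDox and 7d-Dox lists and not the 2d-Dox list 6676 (5.51%). A further 45040 regions (37.2%) were in all 3 lists. Regions in a single list numbered 20911 for 2d-Dox, 16290 for 7d-Dox and 12623 for noDox. The doxycycline-shared regions covered 47.6 Mb.

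Doxycycline-shared regions were moderate in length and low in reads. Their median length was 3600 bp, with quartiles at 2600 and 4800 bp and a range of 400 to 20000 bp. Regions in the noDox and 2d-Dox lists had a median of 3400 bp, those in the noDox and 7d-Dox lists 3800 bp, and those in all 3 lists 6400 bp. Most doxycycline-shared regions (91.3%) consisted of 1 island from each list. The stretch called at both times was 1600 bp at the median, or 50% of the region. In 156 regions (1.30%) the 2 times' islands only touched and shared no base.

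The median doxycycline-shared region held 59 H3K9ac reads at 7d-Dox, with quartiles at 45 and 81 and a range of 21 to 407. At 2d-Dox the median was 45 reads, with quartiles at 34 and 63 and a range of 14 to 314. Regions in all 3 lists held medians of 117 reads at 7d-Dox and 95 reads at 2d-Dox. Together the doxycycline-shared regions took 8.63% of the 7d-Dox list's reads and 8.04% of the 2d-Dox list's reads. The 2 distributions overlapped, but the regions in all 3 lists were mostly higher. By the smaller of the 2 scaled doxycycline counts, 15.6% of the regions in all 3 lists lay under the doxycycline-shared regions' median. Of the regions in all 3 lists, 3822 lay above every doxycycline-shared region. Scaled here means reads divided by library size relative to HRP.

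**Figure D1:**
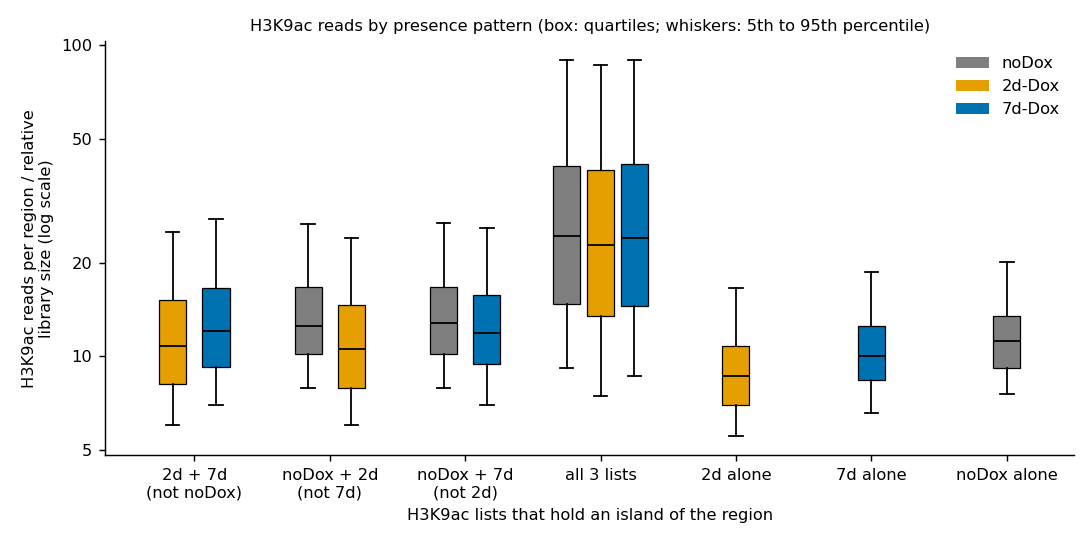
H3K9ac reads per region divided by the library's size relative to HRP (log axis), for each set of lists that hold an island of the region; boxes are quartiles with the median, whiskers the 5th to 95th percentile over regions of 1 library. The doxycycline-shared regions, at the far left, sit beside the other two-list patterns and below the regions in all 3 lists, whose median read counts were 117 at 7d-Dox and 95 at 2d-Dox.

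Per kilobase called, the doxycycline-shared regions were as dense as the other two-list patterns. They held 4.39 scaled reads per kb at 7d-Dox, against 4.37 in the noDox and 7d-Dox pattern and 5.58 in regions of all 3 lists. At 2d-Dox they held 4.92 scaled reads per kb, against 4.94 in the noDox and 2d-Dox pattern and 6.14 in regions of all 3 lists. HRP reads in the same coordinates, the background, were 1.72 per kb in their 7d-Dox islands, against 1.80 in the noDox and 7d-Dox pattern and 1.99 in regions of all 3 lists. In their 2d-Dox islands the HRP density was 1.67 per kb, against 1.84 in the noDox and 2d-Dox pattern and 1.98 in regions of all 3 lists. The density of control reads was thus lowest in the doxycycline-shared regions among these patterns. In regions of a single doxycycline list it was lower still, at 1.65 per kb for 7d-Dox and 1.64 per kb for 2d-Dox. In 16.1% of doxycycline-shared regions the 7d-Dox islands had no HRP read, and in 23.1% the 2d-Dox islands had none.

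The authors' own fold over HRP, in their deposited table, had a median of 2.80 for the 7d-Dox islands of doxycycline-shared regions and 2.87 for that whole list. In the authors' deposited table for 2d-Dox both medians were 3.36. An FDR at or under 0.001 was given in the authors' deposited tables to 87.5% of their 7d-Dox islands, against 90.3% of the whole list, and to 87.6% of their 2d-Dox islands, against 89.5%.

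Reads at the 2 doxycycline times were close once scaled. The median log2 ratio of 7d-Dox over 2d-Dox scaled reads was 0.15 in doxycycline-shared regions (0.14 to 0.16, an order-statistic interval) and 0.07 in regions of all 3 lists. A ratio of at least 2-fold higher at 7d-Dox was seen in 10.7% of doxycycline-shared regions, against 8.3% of all 57053 regions in both doxycycline lists. A ratio of at least 2-fold lower was seen in 4.26%, against 4.1% of all such regions. The direction depended on what was counted: more bases were called at 7d-Dox than at 2d-Dox in 62.4% of doxycycline-shared regions, and per kilobase of island the median log2 ratio was -0.16, against -0.13 in regions of all 3 lists.

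To see how far above the caller's floor these regions would lie in the smaller noDox library, their reads were scaled to its size. From the 7d-Dox reads, 99.6% would reach the fewest reads that any noDox island of like length holds, 74.1% the 5th percentile of such islands, and 15.3% their median. From the 2d-Dox reads the shares were 99.0%, 73.8% and 22.9% in the same order. Most would thus lie under the median of noDox islands of like length. Because each region had to be called at both doxycycline times, its reads are bounded from below by the choice, and these shares say nothing about why the noDox island is missing. The fewest reads of an island are no fixed threshold either, since the caller weighs each island against HRP.

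**Figure D2:**
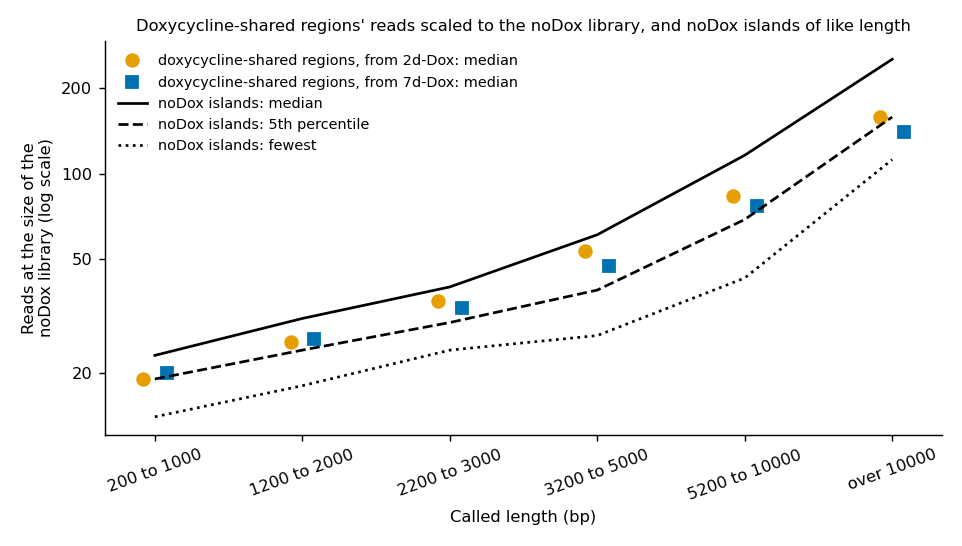
Median reads of doxycycline-shared regions scaled to the size of the noDox H3K9ac library (points) by called length in bp, with the fewest reads, the 5th percentile and the median of noDox islands of like length (lines), on a log axis. In each length class the points lie under the noDox median, and they lie above the 5th percentile or within 1 read of it, except for 7d-Dox in islands over 10000 bp, where the median was 140.4 reads against a 5th percentile of 158.

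High counts were rare among them. From both doxycycline libraries, 1310 doxycycline-shared regions (10.9%) would hold at least 50 reads at the noDox size, 80 (0.666%) at least 100, and 7 at least 150. The patterns were compared at equal counts, with the caveat that any pair of them shares libraries. At 50 or more such reads in both doxycycline lists, 4.84% of 27069 regions lacked a noDox island (95% Clopper-Pearson interval 4.6 to 5.1). At 50 or more in the noDox and 2d-Dox lists, 2.74% of 26260 regions lacked a 7d-Dox island (2.55 to 2.95). At 50 or more in the noDox and 7d-Dox lists, 2.68% of 27098 regions lacked a 2d-Dox island (2.49 to 2.88). At 25 or more the 3 shares were 16.2%, 11.3% and 11.4%, and at 100 or more 0.641%, 0.275% and 0.257%, in the same order. The missing island was more frequent in the noDox list at every count, and the noDox library was also the smallest of the 3; the part of library size in this was not tested.

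The 6 doxycycline-shared regions with the most reads, ranked by the smaller of their scaled counts, were all over 10 kb long and all carried H4K16ac islands at each time. Their positions are on hg19, 1-based, and no gene annotation of that build was used, so each is named by its Giemsa band. The region in 17p13.2 (chr17:4114201-4125000) held 343 reads at 7d-Dox (exact Poisson interval 308 to 381) and 271 at 2d-Dox (240 to 305). Scaled to the noDox library these would be 214 reads from 7d-Dox and 198 from 2d-Dox. Its HRP density was high, at 5.09 reads per kb in the 7d-Dox island and 5.64 in the 2d-Dox island, which is over the 1.72 and 1.67 of doxycycline-shared regions as a whole. H3K27ac islands covered 9400 bp of it at noDox and 6400 bp at 2d-Dox, with none at 7d-Dox. H4K16ac islands covered 1400 bp at noDox, 3200 bp at 2d-Dox and all 10800 bp at 7d-Dox.

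The region in 9q33.2 (chr9:125785201-125805200) was the longest, at 20000 bp, and held 407 reads at 7d-Dox and 249 at 2d-Dox. It had no H3K27ac island at any time, while H4K16ac islands covered 10000, 11000 and 20000 bp of it at noDox, 2d-Dox and 7d-Dox. The region in 1p36.12 (chr1:22836201-22855000) held 339 reads at 7d-Dox and 244 at 2d-Dox over 18800 bp. Its H3K27ac was limited to 3800 bp at 7d-Dox, and its H4K16ac islands covered 14000 bp at noDox, 12200 bp at 2d-Dox and its whole length at 7d-Dox. These 2 long regions thus lay where H4K16ac islands were listed without doxycycline too.

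The region in 5q13.2 (chr5:72350801-72366200) held 309 reads at 7d-Dox and 225 at 2d-Dox. Its H3K27ac differed in presence from its H3K9ac at noDox and at 7d-Dox, while both marks were listed at 2d-Dox. H3K27ac islands covered 4200 bp at noDox and 4400 bp at 2d-Dox, with none at 7d-Dox, the smallest of the H3K27ac libraries. The region in 22q13.33 (chr22:50853001-50866000) held 255 reads at 7d-Dox and 209 at 2d-Dox, with H3K27ac at noDox and 7d-Dox and not at 2d-Dox. The region in 1p13.3 (chr1:110558001-110568200) held 271 reads at 7d-Dox and 209 at 2d-Dox. Of the 6, it alone had H3K27ac islands at both doxycycline times, 3400 bp at 7d-Dox and 2800 bp at 2d-Dox, and none at noDox. Its HRP density was high too, at 4.02 reads per kb in the 7d-Dox island and 3.33 in the 2d-Dox island. In doxycycline-shared regions as a whole these densities were 1.72 and 1.67. In 9q33.2, 1p36.12, 5q13.2 and 22q13.33 the HRP density was 0.970 to 2.21 reads per kb. The nearest merged region with a noDox H3K9ac island, whose edge may come from another list's island, lay 200 to 1800 bp away for 5 of the 6, and 9800 bp away for the one in 22q13.33.

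**Figure D3:**
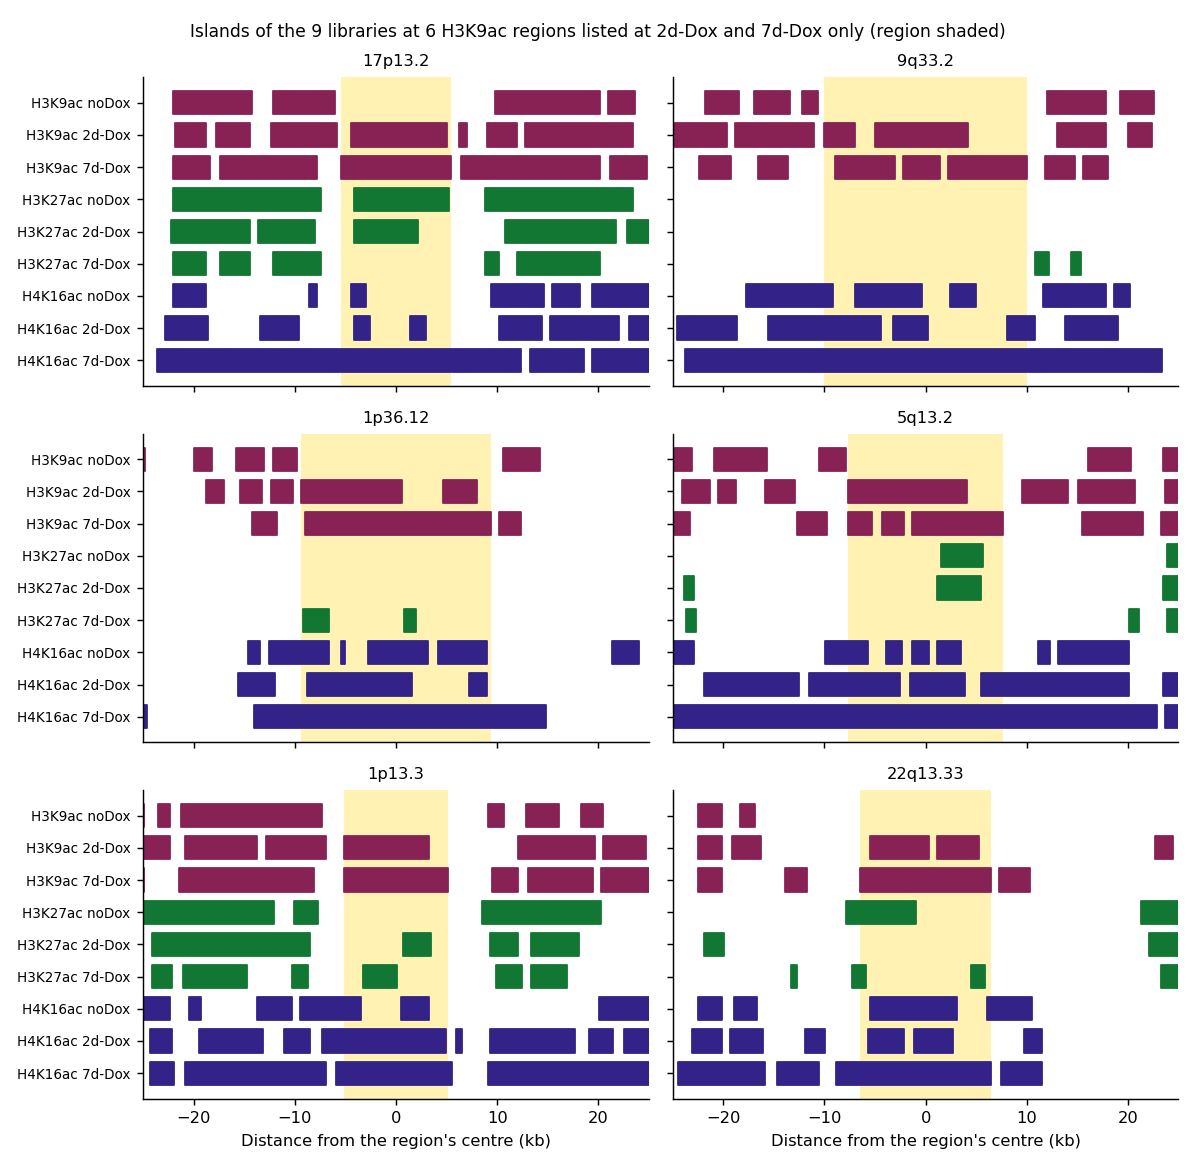
Islands of the 9 antibody libraries within 25 kb of the centre of the 6 doxycycline-shared regions with the most reads; each row is 1 library, bars are islands, and the region is shaded. H3K9ac islands lie in the shading at 2d-Dox and 7d-Dox, the nearest noDox H3K9ac island lies 200 to 600 bp outside it for 4 of the 6 regions, 2200 bp for 1p13.3 and 10400 bp for 22q13.33, and the 7d-Dox H4K16ac islands cover the whole of each region.

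The widest regions resembled these. Besides those in 9q33.2 and 1p36.12, the 4 widest included one in 16q21 (chr16:57539201-57557800) with 207 reads at 7d-Dox and 314 at 2d-Dox. The other was in 2p23.3 (chr2:27452201-27469400), with 247 reads at 7d-Dox and 205 at 2d-Dox. Neither had an H3K27ac island at noDox or 2d-Dox, and both had H4K16ac over at least 7600 bp at each time. At the lower edge of the rule, a region in 11q13.3 (chr11:68444801-68445600) held 22 reads at 7d-Dox and 23 at 2d-Dox, and one in 11q22.1 (chr11:100509001-100510400) held 25 reads at 7d-Dox and 20 at 2d-Dox. Just outside the rule, 2 regions were in all 3 lists through a noDox island of 16 reads. The one in 13q12.3 (chr13:30914201-30917400) held 32 reads at 2d-Dox and 83 at 7d-Dox, and the one in 2q14.2 (chr2:121199401-121200200) held 28 reads at 2d-Dox and 39 at 7d-Dox.

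H3K27ac islands overlapped a minority of doxycycline-shared regions at every time, before as well as after induction. By at least 1 bp, an H3K27ac island overlapped 33.0% of them at noDox (32.2 to 33.9), 32.2% at 2d-Dox (31.4 to 33.1) and 35.3% at 7d-Dox (34.4 to 36.1). With at least 50% of the region covered, the shares were 27.1% at noDox, 22.8% at 2d-Dox and 17.4% at 7d-Dox. By 1 bp, all merged H3K9ac regions had shares of 43.6%, 42.6% and 43.7% at the same times. The noDox and 2d-Dox pattern had 40.6%, 39.4% and 38.6%, the noDox and 7d-Dox pattern 38.0%, 37.4% and 37.1%, and regions of all 3 lists 75.6%, 75.6% and 75.3%. The doxycycline-shared regions thus had the lowest H3K27ac share among the patterns of at least 2 lists, at each time. Of them 50.7% had no H3K27ac island at any time, against 45.2% of all H3K9ac regions. A further 20.2% had one at all 3 times, against 33.1% of all. The noDox and 2d-Dox pattern had 45.2% and 25.5% in the same order, and the noDox and 7d-Dox pattern 47.7% and 24.3%.

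H3K27ac seldom followed the H3K9ac pattern. It was present at both doxycycline times and absent at noDox in 242 doxycycline-shared regions (2.01%), against 1.55% of all H3K9ac regions. It was present at noDox alone in 476 (3.96%), against 3.07% of all. The other two-list patterns had like shares: 1.87% and 4.29% in the noDox and 2d-Dox pattern, and 2.01% and 4.15% in the noDox and 7d-Dox pattern. The share at 7d-Dox exceeded that at noDox by 2.26 percentage points in doxycycline-shared regions and by 1.70 points in regions of the 7d-Dox list alone. In the noDox and 2d-Dox pattern the difference was -2.03 points, and in the noDox and 7d-Dox pattern -0.96 points. The 7d-Dox H3K27ac library was the smallest of all 9, and its islands were more numerous and shorter, with 83153 islands of 2000 bp at the median, against 50960 of 4400 bp at noDox. Where an H3K27ac island was present it covered 84.2% of the region at noDox, 69.2% at 2d-Dox and 47.6% at 7d-Dox, at the median. The part of these library differences in the shares was not tested.

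In the regions with an H3K27ac island at both times compared, the ratios of its scaled reads had medians near 0. The median log2 ratio of 7d-Dox over noDox was 0.02 (-0.01 to 0.05) over 2738 doxycycline-shared regions, against -0.07 in the noDox and 2d-Dox pattern and -0.12 in the noDox and 7d-Dox pattern. The ratio of 2d-Dox over noDox was -0.06 (-0.08 to -0.03) over 3176 doxycycline-shared regions, and -0.03 in each of those patterns. Per kilobase of H3K27ac island the medians in doxycycline-shared regions were higher, at 0.46 for 7d-Dox over noDox (0.43 to 0.49) and 0.12 for 2d-Dox over noDox. The same ratios per kilobase in regions of all 3 lists were 0.44 and 0.13. Reads of an island that ran past a region were counted by the share of its length inside.

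H4K16ac islands were listed at many doxycycline-shared regions before doxycycline. An H4K16ac island overlapped 56.3% of them at noDox (55.4 to 57.2), 57.4% at 2d-Dox (56.5 to 58.3) and 72.9% at 7d-Dox (72.1 to 73.7). The noDox and 2d-Dox pattern had 50.5%, 49.0% and 65.6%, the noDox and 7d-Dox pattern 52.5%, 53.7% and 69.3%, and all regions 53.9%, 53.1% and 68.0%. With at least 50% of the region covered, the shares of doxycycline-shared regions were 31.1% at noDox, 40.9% at 2d-Dox and 66.5% at 7d-Dox. Regions of all 3 lists had 75.7%, 71.5% and 81.5%. Among the two-list patterns the doxycycline-shared regions had the highest H4K16ac share at each time, the reverse of their place for H3K27ac. At noDox this lead was absent among regions up to 2000 bp. There the share was 35.3%, against 36.1% in the noDox and 2d-Dox pattern and 35.8% in the noDox and 7d-Dox pattern. Over all lengths, the H4K16ac share was higher at 7d-Dox than at noDox in every other pattern too. In doxycycline-shared regions that order turned when only H4K16ac islands with a fold over HRP of at least 2 counted, with 48.2% at noDox, 45.7% at 2d-Dox and 44.3% at 7d-Dox. Moreover, the 7d-Dox H4K16ac library was the largest of all 9; its islands covered 583.8 Mb, against 274.8 Mb at noDox.

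**Figure D4:**
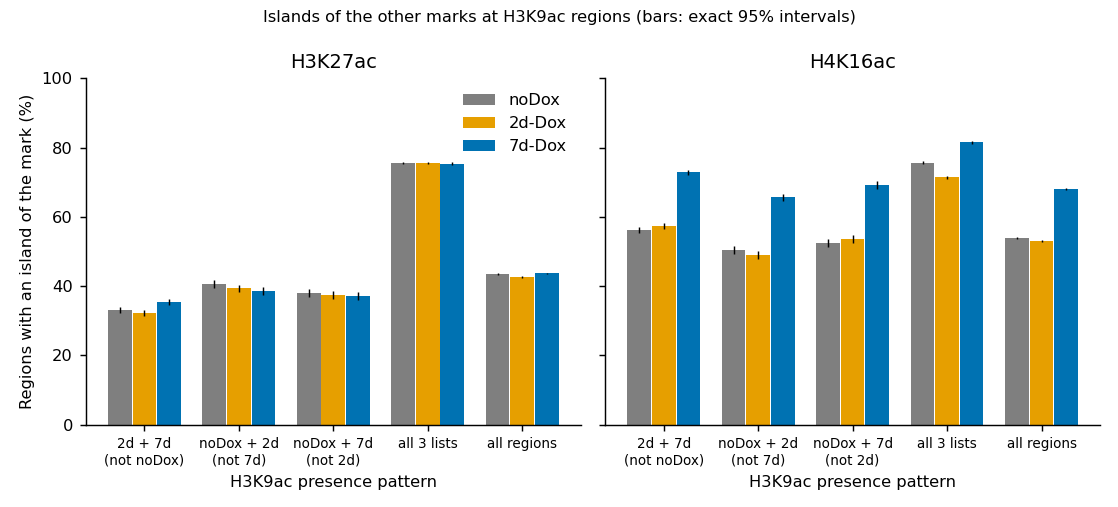
Share of H3K9ac regions with an H3K27ac (left) or H4K16ac (right) island at each time, by H3K9ac presence pattern; bars show 1 library each, with exact 95% intervals over regions. The doxycycline-shared regions, first in each panel, have the lowest H3K27ac shares of the patterns shown (33.0%, 32.2% and 35.3%) and, among two-list patterns, the highest H4K16ac shares (56.3%, 57.4% and 72.9%).

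H4K16ac was present at both doxycycline times and absent at noDox in 1708 doxycycline-shared regions (14.2%), against 11.7% of all H3K9ac regions. The noDox and 2d-Dox pattern, with no 7d-Dox H3K9ac island, had 13.4%, and the noDox and 7d-Dox pattern 14.6%. H4K16ac at noDox alone was found in 601 doxycycline-shared regions (5.0%), against 5.99% of all. The noDox and 2d-Dox pattern had 7.27% and the noDox and 7d-Dox pattern 6.74%. No H4K16ac island at any time was found in 15.0% of doxycycline-shared regions, against 18.7% of all. The same 2 patterns had 18.5% and 16.2%. Where H4K16ac was present at both times, the median log2 ratio of scaled reads was 0.17 for 7d-Dox over noDox and 0.11 for 2d-Dox over noDox. In the noDox and 2d-Dox pattern these ratios were 0.14 and 0.07, in the noDox and 7d-Dox pattern 0.18 and 0.12, and in regions of all 3 lists 0.24 and 0.09. Per kilobase of H4K16ac island the direction turned: the medians in doxycycline-shared regions were -0.52 for 7d-Dox over noDox and -0.18 for 2d-Dox over noDox, and those in regions of all 3 lists -0.54 and -0.19.

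The 2 marks divided the doxycycline-shared regions by length. Regions of up to 2000 bp, 1634 in number, had H3K27ac in 51.5% and H4K16ac in 35.3% at noDox. Regions over 6000 bp, 1516 in number, had H3K27ac in 27% and H4K16ac in 81.3% at noDox. Longer regions have more room for an overlap by 1 bp, and the H3K27ac share was nevertheless lower over 6000 bp than up to 2000 bp at each time. At 7d-Dox it was 47.4% up to 2000 bp, 31.3% from 3200 to 4000 bp and 37.5% over 6000 bp. In the noDox and 2d-Dox pattern the H3K27ac share at noDox was 53.6% up to 2000 bp and 43.8% over 6000 bp, so the difference, doxycycline-shared regions minus this pattern, was -2.17 points among short regions and -16.8 points among long ones. In the noDox and 7d-Dox pattern it was 58.1% and 34.5%, and the difference was -6.65 points among short regions and -7.53 points among long ones. The H4K16ac share at noDox was higher in long regions in both of these patterns too. It was 36.1% and 73.7% in the noDox and 2d-Dox pattern, with differences of -0.745 and 7.54 points. In the noDox and 7d-Dox pattern it was 35.8% and 70.7%, with differences of -0.516 and 10.5 points.

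**Figure D5:**
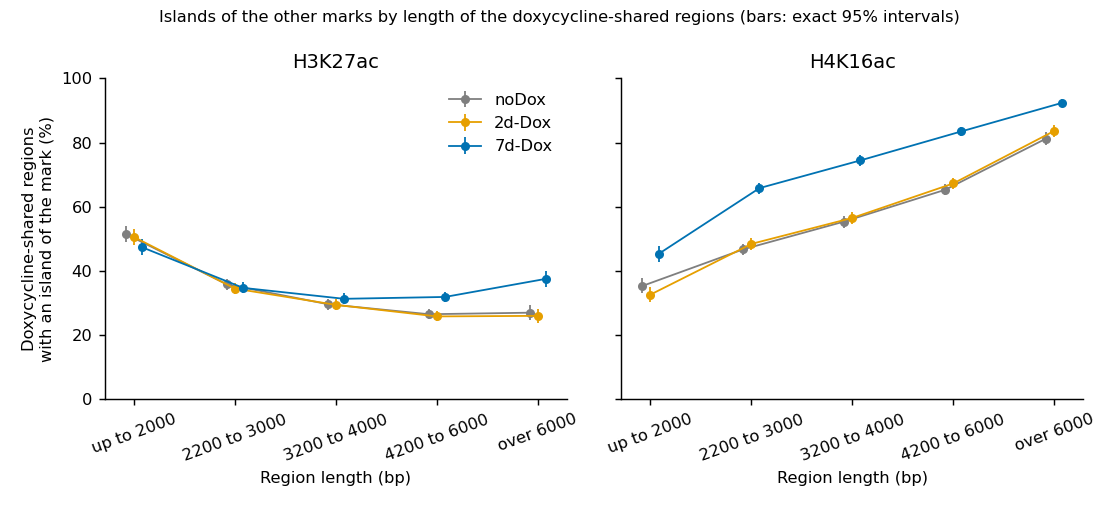
Share of doxycycline-shared regions with an H3K27ac (left) or H4K16ac (right) island at each time, by region length in bp; points are shares of 1 library and bars exact 95% intervals over regions. H3K27ac was most frequent in regions up to 2000 bp (51.5% at noDox), whereas H4K16ac was most frequent over 6000 bp (81.3% at noDox and 92.4% at 7d-Dox).

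H4K16ac without H3K27ac was the most frequent combination. Over the 3 times together, 46.1% of doxycycline-shared regions had H4K16ac islands alone, 38.9% had both marks, 10.3% had H3K27ac alone, and 561 (4.67%) had neither. The noDox and 7d-Dox pattern had the same leading combination, with H4K16ac alone in 43.1% and both marks in 40.7%, as had the regions of a single list, with H4K16ac alone in 50.8% for 2d-Dox, 55.0% for 7d-Dox and 47.4% for noDox. In the noDox and 2d-Dox pattern H4K16ac alone made up 39.7% and both marks 41.8%. In regions of all 3 lists H4K16ac alone made up 14.8% and both marks 77.5%. Among all H3K9ac regions both marks led, at 45.3%, with H4K16ac alone in 43660 of 121191 and H3K27ac alone in 9.45%. Neither mark was found in 9.21% of all regions, 5.49% of the noDox and 2d-Dox pattern and 4.67% of the noDox and 7d-Dox pattern. That share was 0.488% in regions of all 3 lists and 17.1% to 20.97% in those of a single list. Doxycycline-shared regions with H3K27ac at all 3 times had a median length of 3000 bp and 4.96 scaled H3K9ac reads per kb at 7d-Dox. Those with no H3K27ac at any time had a median of 3600 bp and 4.19 reads per kb. The density of control reads differed in the same direction. In the 2d-Dox islands HRP reads per kb were 1.89 with H3K27ac at all 3 times and 1.58 with none. Scaled H3K9ac reads per kb at 2d-Dox were 5.53 and 4.69 in the same order.

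The 242 regions whose H3K27ac was listed at the same times as their H3K9ac held medians of 62 H3K9ac reads at 7d-Dox and 49 at 2d-Dox, against 59 and 45 in all doxycycline-shared regions. Among those with the most scaled H3K27ac reads, the region in 10p12.1 (chr10:28887001-28892400) had H3K27ac islands over its whole 5400 bp at 2d-Dox and over 4000 bp at 7d-Dox, beside 60 H3K9ac reads at 7d-Dox and 90 at 2d-Dox. One in 7q36.1 (chr7:151061401-151066000) had H3K27ac over 2400 bp at 7d-Dox and 2600 bp at 2d-Dox, and lay 29600 bp from the nearest region with a noDox H3K9ac island. One in 1p32.3 (chr1:54752601-54759200) had H3K27ac over 3600 bp at 7d-Dox and 5400 bp at 2d-Dox, and H4K16ac at each time. The region in 1p13.3 described above was the other of the 4 with the most scaled H3K27ac reads. HRP reads per kb in the H3K9ac islands of 7d-Dox and 2d-Dox were 3.91 and 3.85 in 7q36.1. They were 2.5 and 3.15 in 10p12.1, and 1.48 and 1.09 in 1p32.3.

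H4K16ac was listed at the same times as H3K9ac in 1708 doxycycline-shared regions. The 4 of these with the most scaled H4K16ac reads were 7800 to 8600 bp long. They lay in 1p22.1 (chr1:92778601-92786400), 3q13.31 (chr3:113517001-113524800), 1p13.3 (chr1:109452201-109460800) and 1p36.13 (chr1:16782201-16790800). Their H4K16ac islands covered 6200 to 7600 bp at 2d-Dox and at least 7600 bp at 7d-Dox. None had H3K27ac at noDox or 2d-Dox, and their H3K9ac reads ranged from 65 to 165 at 7d-Dox and from 51 to 141 at 2d-Dox.

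All 3 marks were present at both doxycycline times and absent at noDox in 20 doxycycline-shared regions (0.166%, interval 0.102 to 0.257). H3K27ac and H4K16ac had that pattern in 0.128% of all H3K9ac regions, a share inside this interval, while they had it in 0.236% of the noDox and 2d-Dox pattern and 0.150% of the noDox and 7d-Dox pattern. The 4 of the 20 with the most H3K9ac reads lay in 4q21.3 (chr4:87424001-87431000), 3q21.3 (chr3:128477401-128482000), 16p13.3 (chr16:3829401-3835200) and 7p14.3 (chr7:32075401-32081000). The one in 4q21.3 held 163 H3K9ac reads at 7d-Dox and 117 at 2d-Dox. The one in 3q21.3 held 121 reads at 7d-Dox and 89 at 2d-Dox, with H3K27ac over 800 bp at 7d-Dox and 3600 bp at 2d-Dox. Those in 16p13.3 and 7p14.3 held 93 and 86 reads at 7d-Dox, against 107 and 92 at 2d-Dox. All 4 lay 400 to 2200 bp from a region with a noDox H3K9ac island.

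Most doxycycline-shared regions lay near H3K9ac regions that were listed without doxycycline. The nearest region with a noDox island was 3200 bp away at the median, within 1 kb for 25.2% and within 5 kb for 61.3%. The choice bounds this distance from below, and the smallest was 200 bp. In 19.7% such regions lay within 5 kb on both sides, and in 3.19% none lay within 50 kb. The other two-list patterns lay at like distances from the list they lacked. The noDox and 2d-Dox pattern lay 3000 bp from the nearest region with a 7d-Dox island, 64.2% within 5 kb, and the noDox and 7d-Dox pattern 2800 bp from one with a 2d-Dox island, 65.8% within 5 kb. Regions of a single doxycycline list were farther from a region with a noDox island, at 5200 bp for 7d-Dox and 4800 bp for 2d-Dox. Closeness went with H4K16ac: of the doxycycline-shared regions with H4K16ac at all 3 times 72.4% lay within 5 kb of a noDox region, and of those with none at any time 42.3%. The regions with H4K16ac at all 3 times were also longer, with a median of 4400 bp against 2600 bp.

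Doxycycline-shared regions were spread over all 22 chromosomes, with a median of 80800 bp to the next one, and 12.2% had another within 10 kb. The noDox and 2d-Dox pattern, with fewer regions, had 140200 bp and 7.16%. The noDox and 7d-Dox pattern, also with fewer, had 159900 bp and 6.48%. Regions of all 3 lists, which were more numerous, had 9600 bp and 51.2%. The share of H3K9ac regions that were doxycycline-shared ranged from 8.96% on chromosome 8 (8.22 to 9.75) to 11.9% on chromosome 22 (10.5 to 13.4), around the 9.91% of the genome. Among 244 Giemsa bands with at least 200 regions the share had a median of 9.83%. It was highest in 11p15.1, with 37 of 233 regions (15.9%, interval 11.4 to 21.2), and lowest in 1p31.1, with 17 of 365 (4.66%, interval 2.74 to 7.35). These bands were named after their values were seen. Pale-staining bands, which are rich in genes, held 54.0% of doxycycline-shared regions, against 52.6% of all H3K9ac regions, 52.1% of the noDox and 2d-Dox pattern, 50.8% of the noDox and 7d-Dox pattern and 56.5% of regions of all 3 lists.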

How the data were processed

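CUT&RUN island lists of H3K9ac, H3K27ac and H4K16ac in IHA cells were analysed, 1 library per mark and time (noDox, 2d-Dox, 7d-Dox), each called by the authors against the same HRP library. The submitters' processing notes name Bowtie2 2.3.5.1, SICER, Picard, cutadapt, deepTools and FastQC, and the build hg19. No settings, and nothing on duplicates, were given in the sources used here. Per the file headers each island has 2 raw whole-number counts, one for the antibody and one for HRP, and the authors' log2 fold, score, p-value and FDR. The deposited log2 fold is the log2 ratio of both counts less 1 constant per list, with 0 HRP reads entered as 0.25. That constant gave each library's size relative to HRP, by which reads were scaled. All island lengths were multiples of 200 bp. No island ended past an hg19 chromosome, while islands on 13 of 22 chromosomes ended past hg38 lengths.

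Islands of chromosomes 1 to 22 were merged where they overlapped or touched, and another mark counted as present from 1 shared bp. The members and lists were chosen with earlier results of these data known. Regions were named by rule: the 6 with the largest smaller scaled count, the 4 widest, the 4 each with the most scaled reads where H3K27ac, H4K16ac or all 3 marks followed the H3K9ac pattern, and 2 each just inside and outside the rule. Shares carry exact Clopper-Pearson and counts exact Poisson 95% intervals; medians carry order-statistic intervals. Bands came from circlize 0.4.16. Python 3.11.15, pandas 2.3.3, scipy 1.17.1 and R 4.3.3 were used, and the merging and interval code was tested on simulated lists. Genes and promoters at the regions, planned at the start, were not analysed here, since the reference used here is of another build, and no sequence is shown for the same reason. The alternatives tried were other merging gaps, FDR, fold and read limits, equal list lengths, a larger overlap and another scaling.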

Additional observations from a re-analysis of the deposited data

Results flagged for a closer look

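In the doxycycline-shared regions the share with an H3K27ac island lay above noDox at 7d-Dox and below it at 2d-Dox. It differed from noDox by 2.26 percentage points at 7d-Dox and by -0.807 points at 2d-Dox. Both directions depended on the setting: with at least 50% of the region covered the share was 17.4% at 7d-Dox against 27.1% at noDox, and with a fold over HRP of at least 2 it was 28.9% at 2d-Dox against 28.8% at noDox. This difference was not tested, since each time has 1 library, and the 7d-Dox H3K27ac library was the smallest, at 1.49 times the HRP library, against 3.15 at 2d-Dox and 3.98 at noDox.

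Chromosome X was outside the rule. There, 116 of 1164 merged H3K9ac regions (9.97%, Clopper-Pearson interval 8.30 to 11.8) had islands at both doxycycline times and none at noDox, against 9.91% on chromosomes 1 to 22.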

How the results depend on the processing

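No paired analysis was possible because each mark and time has 1 library; for the same reason no replicate could be left out. Of 34 alternative values, 8 counted as unchanged, which for a number of regions meant within 1.5 times and for a share or median within its 95% interval. The number of doxycycline-shared regions was 12013; it was 9106 with islands up to 1 kb apart joined, 5818 with 3 kb, 11256 with an FDR at or under 0.001, 9490 with a fold over HRP of at least 2, 9057 with equal numbers of islands per list and 3882 with at least 50 reads at both times. The H3K27ac shares at noDox, 2d-Dox and 7d-Dox were 27.1%, 22.8% and 17.4% when at least 50% of the region had to be covered, so that the 7d-Dox share was then the lowest, not the highest, of the 3. With islands of a fold of at least 2 they were 28.8%, 28.9% and 33.5%, and the noDox share was 31.6% with 1 kb gaps joined. H4K16ac shares were 31.1%, 40.9% and 66.5% at 50% cover. With a fold of at least 2 they were 48.2%, 45.7% and 44.3%, which removed the higher share at 7d-Dox, and with 1 kb gaps joined 54.5%, 55.1% and 69.6%. H3K27ac at both doxycycline times and not at noDox was found in 0.741% at 50% cover and 2.61% with a fold of at least 2, and H4K16ac in 19.1% and 8.51%. The median log2 ratio of 7d-Dox over 2d-Dox reads was 0.10 when scaled by reads in islands and reversed to -0.16 per kb of island, since islands were longer at 7d-Dox. With 1 kb gaps joined the median length was 4000 bp and 51.2% of regions lay within 5 kb of a noDox region, gaps that the joining itself takes out. The causes of the other shifts were not tested. Depth limits the single counts: 20 reads, in the region of 11q22.1, have a Poisson interval of 12.2 to 30.9.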
